A study of Homo sapiens with 2 samples.

Results

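The NF-κB subunits and their feedback inhibitors were examined on the arrays of AGS.W and AGS.veh, a pair of stable lines of the human gastric adenocarcinoma line AGS. AGS.W carried a lentiviral vector with the WTX coding region and AGS.veh was its negative control line. Both lines had been selected with puromycin after infection, and their total RNA was read on Affymetrix U133 Plus 2.0 arrays, 1 for each. The 10 genes listed were NFKB1, NFKB2, REL, RELA, RELB, NFKBIA, NFKBIB, NFKBIE, TNFAIP3 and BIRC3, and every probe set that the platform annotation assigns to one of them alone was taken. This gave 20 probe sets of 54613 for 9 of the 10 genes, and BIRC3, which had none in the annotation used, was not analysed here. Because neither line was replicated, no p-value or standard error exists, and each value is a difference between 2 cultures.

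NF-κB is a family of dimeric transcription factors built from the subunits RELA (p65), RELB, REL (c-Rel), p50 and p52. NFKB1 and NFKB2 encode the precursors p105 and p100, from which p50 and p52 are made, and the precursors also hold dimers in the cytoplasm. The IκB proteins, encoded by NFKBIA, NFKBIB and NFKBIE, mask the dimers until the IκB kinase complex marks them for degradation. The freed dimers bind κB sites in promoters, among them those of NFKBIA and of TNFAIP3, whose product A20 shuts off signalling upstream, so that the pathway restrains itself. In gastric epithelium NF-κB is known for its activation by Helicobacter pylori and for driving chemokines such as CXCL8.

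Sequences before the start sites show where the κB motif lies in these genes and in 2 targets whose signals are given below. The RefSeq promoter table of GRCh38.p14 held windows for 8 of the 10 genes, not for RELB and NFKBIE, each running from 250 bases before to 50 bases after a start site. The κB decamer consensus was searched on both strands, together with the shorter motif GGNNNTTCC, which overlaps it and also takes in the site of CXCL8. The decamer was found in at least 1 window of 7 of these 8 genes, RELA being the exception, against 13.3% of 27305 genes in the table. The shorter motif was found in the same number, 7 of 8, against 23.5%. The motifs were chosen after the sequences were seen, a match is only a match of letters, and no binding was measured. Below, stretches of 50 bases are given 5′ to 3′ on the strand of the gene, with matches to either motif in capitals, for 6 members and for CXCL8 and IL6, a chemokine and a cytokine that are targets of NF-κB. The stretches are chr4:102501290-102501339 (plus strand) for NFKB1, chr10:102394480-102394529 (plus) for NFKB2, chr2:60881508-60881557 (plus) for REL, chr14:35404801-35404850 (minus) for NFKBIA, chr19:38899919-38899968 (plus) for NFKBIB, chr6:137867184-137867233 (plus) for TNFAIP3, chr4:73740457-73740506 (plus) for CXCL8 and chr7:22727107-22727156 (plus) for IL6.
NFKB1: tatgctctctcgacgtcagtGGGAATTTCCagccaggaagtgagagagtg
NFKB2: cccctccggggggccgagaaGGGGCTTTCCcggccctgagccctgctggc
REL: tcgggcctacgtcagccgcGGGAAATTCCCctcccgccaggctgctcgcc
NFKBIA: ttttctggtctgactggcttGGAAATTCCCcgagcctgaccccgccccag
NFKBIB: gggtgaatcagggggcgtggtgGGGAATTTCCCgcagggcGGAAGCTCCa
TNFAIP3: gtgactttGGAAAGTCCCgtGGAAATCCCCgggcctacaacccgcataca
CXCL8: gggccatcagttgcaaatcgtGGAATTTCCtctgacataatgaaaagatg
IL6: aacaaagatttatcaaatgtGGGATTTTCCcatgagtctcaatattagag

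The values used were deposited log2 signals, already brought to nearly equal distributions by the authors, with a median over probe sets of 4.02 on the AGS.W array and 4.03 on the AGS.veh array. A probe set was taken as measured above the dimmest part of the array where it reached the median on at least 1 array, which 28504 probe sets and 12811 of 19775 genes did. Each gene was represented by its brightest probe set. WTX itself (AMER1) read 3.70 in AGS.W and 3.86 in AGS.veh on its single probe set, both below the median. The labels remain unchecked by it, because its position relative to the introduced coding region was not settled. Of 8 epithelial markers 6 passed the filter, among them the keratin gene KRT18 at 10.9 in AGS.W and 11.2 in AGS.veh, while KRT19 and CDH1 did not pass. Of these 6, 3 were lower and 2 higher in AGS.W by more than the spread described below. EPCAM was higher by 1.89-fold and MUC1 by 1.72-fold, and KRT8 was lower by 1.30-fold, CLDN4 by 1.29-fold and KRT18 by 1.24-fold. ELF3 had a log2 difference of 0.12 on its brightest probe set, but a mean of -0.69 over all of its probe sets. The mean of CLDN4 was -0.04. The extraction field of the labels names a brain cortex, whereas the other fields name AGS cells. Of 8 markers of astrocytes and neurons 4 passed, namely GAD1, MBP, SLC17A7 and RBFOX3, while GFAP, AQP4, S100B and SYT1 did not. The brightest was GAD1, with 7.06 on the AGS.W array against 7.11 on the AGS.veh array. MBP came next, with 6.10 against 6.19. Over all 8, those that failed included, signals ran from 2.03 to 7.06 in AGS.W, compared with 1.69 to 7.11 in AGS.veh. Of 11 measured leukocyte markers 3 passed, CD79A, CD3E and, only through its AGS.veh signal, CD53. The brightest was CD79A, with 5.52 on the AGS.W array against 5.48 on the AGS.veh array. Over all 11, those that failed included, signals ran from 1.85 to 5.52 in AGS.W, compared with 1.63 to 5.48 in AGS.veh. The pan-leukocyte gene PTPRC had 1.85 in AGS.W and 1.63 in AGS.veh, far below the median, and the log2 signals of the leukocyte list summed to 37.5 in AGS.W and 37.0 in AGS.veh. The part of these markers and cells in the values below was not tested.

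No member differed by 2-fold between the lines. In these cultures fewer cells that express a gene and less RNA per cell cannot be told apart. Of the 9 genes, all of which passed the filter, 4 were higher, 4 were lower and 1 was equal in AGS.W, with a median log2 difference (AGS.W minus AGS.veh) of 0.00, against -0.01 over all 12811 genes. Over all genes 3.78% were at least 2-fold apart, so a count of 0 among 9 is near that background. At 1.5-fold the count was 1 of 9, NFKB1, against 14.0% of all genes. Among the 18 member probe sets that passed, none was 2-fold apart and 1 was 1.5-fold apart, against 3.80% and 14.2% of all probe sets that passed. Of these 18, 10 were higher, 7 were lower and 1 was equal. As a yardstick for single values, the spread of differences was taken over the 1000 probe sets nearest in mean signal (their scaled median absolute deviation), which mixes measurement error with real differences between the lines. For member probe sets this spread lay between 0.26 and 0.40 on the log2 scale, and 16 of the 18 differences stayed within it. By its construction most probe sets of like signal lie within it. The share over all probe sets was not computed, so this count is no result about the members. The same holds for the counts beyond the spread given for other lists.

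**Figure D1:**
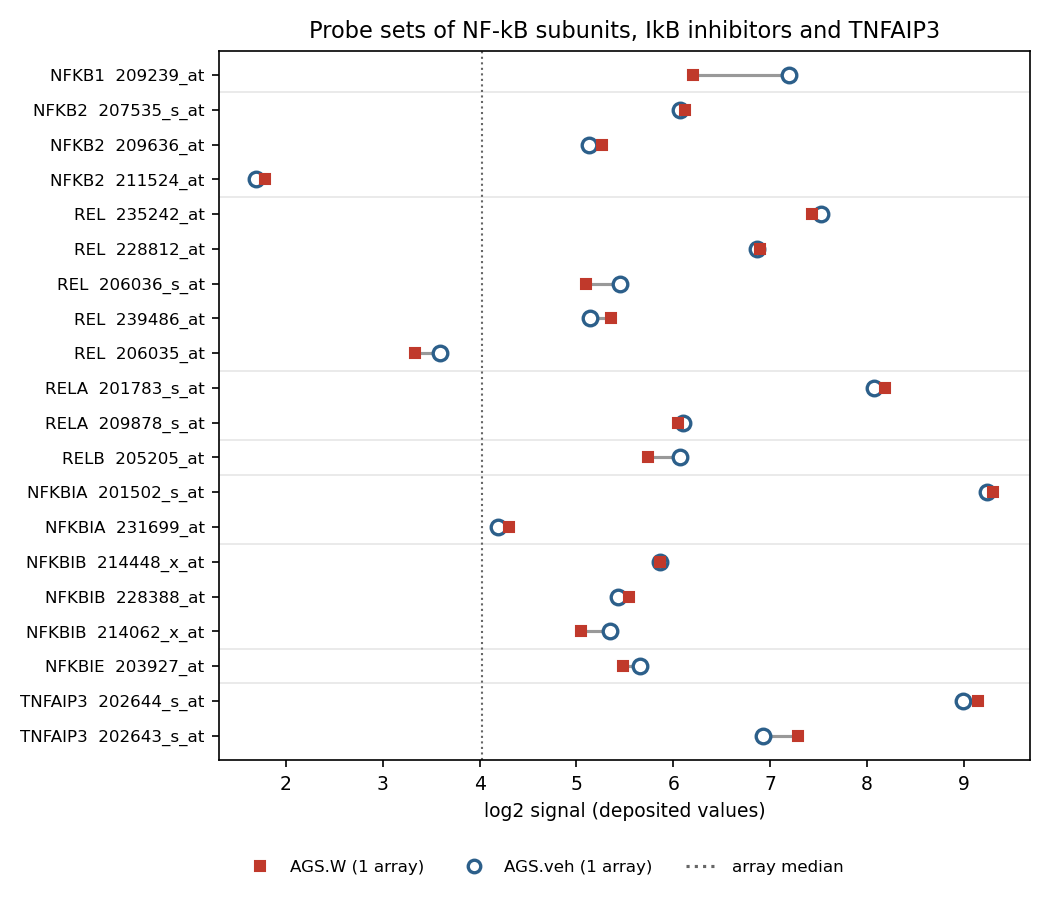
Log2 signal (horizontal axis) of each member probe set in AGS.W (squares) and AGS.veh (circles), 1 array each, with the array median as a dotted line. NFKB1 stands at 6.20 in AGS.W, compared with 7.19 in AGS.veh, and the other 19 probe sets differ by at most 0.36 in either direction.

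NFKB1 stood apart from the other subunits. Its single probe set read 6.20 in AGS.W, compared with 7.19 in AGS.veh, a log2 difference of -0.99, or 1.98-fold lower in AGS.W. Divided by the spread at that signal, the difference was -2.53. Of the 12811 genes, 265 had a difference at least this low, NFKB1 included, which is 2.07%. No further probe set of NFKB1 was analysed here.

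NFKB2, which makes p52 and takes part in the slower non-canonical branch, differed far less. Its brightest probe set had 6.12 in AGS.W, compared with 6.07 in AGS.veh, and the next had 5.27 in AGS.W and 5.13 in AGS.veh. The last, below the median on both arrays, read 1.79 in AGS.W, compared with 1.69 in AGS.veh. All 3 were thus slightly higher in AGS.W, with differences from 0.06 to 0.14, each less than the spread at its signal.

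REL, the c-Rel subunit best known from lymphocytes, had the most probe sets, and they did not share a direction. Its brightest had 7.43 in AGS.W, compared with 7.53 in AGS.veh, and the next had 6.90 in AGS.W and 6.86 in AGS.veh. Another had 5.10 in AGS.W and 5.45 in AGS.veh, while one more had 5.36 in AGS.W and 5.14 in AGS.veh. The last, below the median, had 3.33 in AGS.W and 3.59 in AGS.veh. Over all 5, 2 were higher and 3 lower, with a mean difference of -0.09 ± 0.23 (SD over 5 probe sets of the same arrays, which are not replicates). The lowest of them, -0.35, was the only value besides that of NFKB1, among the 18 member probe sets that passed, to exceed the spread at its signal, to which its ratio was -1.02.

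RELA, which carries the main activation domain of the classical dimer, was bright on its first probe set, at 8.19 in AGS.W and 8.07 in AGS.veh. Its second probe set had 6.05 in AGS.W and 6.10 in AGS.veh, so the pair disagreed in sign at differences of 0.12 and -0.05. RELB, the partner of p52, had 5.73 in AGS.W and 6.07 in AGS.veh on a single probe set. Its difference of -0.33 lay within the spread at its signal, with 18.2% of all genes at least as low.

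**Figure D2:**
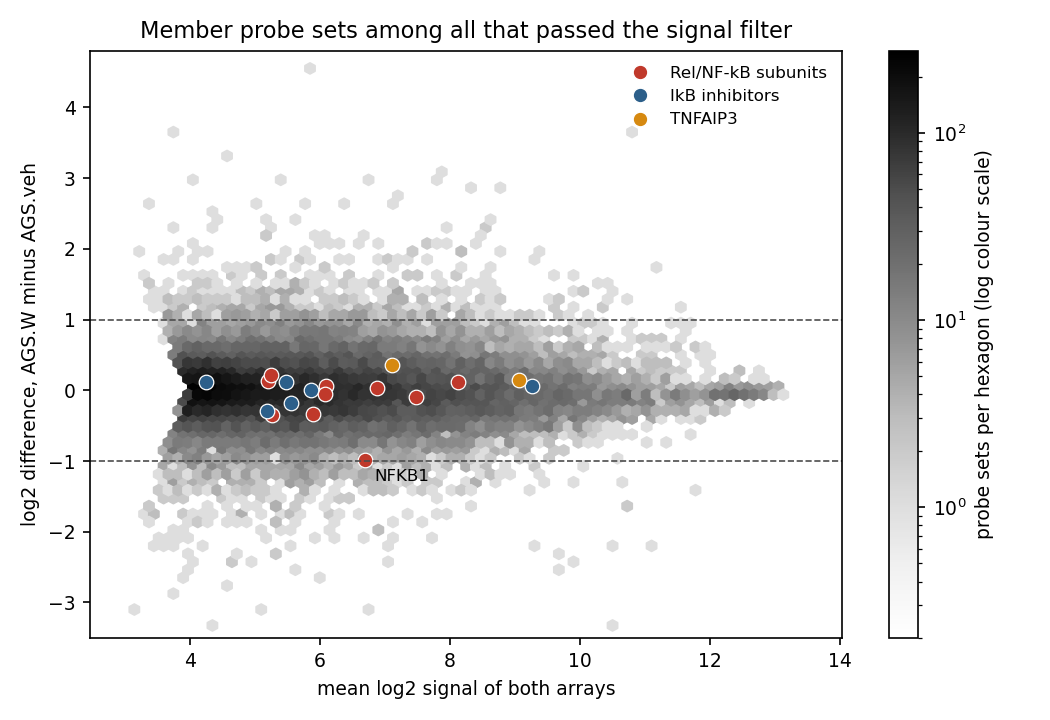
Log2 difference, AGS.W minus AGS.veh (vertical axis), against the mean log2 signal of both arrays (horizontal axis) for the 28504 probe sets that passed the filter (grey hexagons, darker where more probe sets lie) and the 18 member probe sets among them (coloured points). Dashed lines mark 2-fold, and NFKB1 lies just inside the lower line, apart from all other members.

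Of the inhibitors, NFKBIA (IκBα), the fast feedback target of the pathway, was bright and nearly equal in both lines. Its main probe set had 9.30 in AGS.W, compared with 9.23 in AGS.veh, and a second, close to the array median, read 4.30 in AGS.W, compared with 4.19 in AGS.veh. The differences of 0.06 and 0.12 were both within the spread. NFKBIB (IκBβ), a slower inhibitor, had 3 probe sets that went each their own way. The brightest held exactly the same value on both arrays, 5.87, as did 4.49% of all probe sets that passed, and the others had 5.54 in AGS.W, compared with 5.43 in AGS.veh, and 5.05 in AGS.W and 5.34 in AGS.veh. The mean over these 3 was -0.06 ± 0.21 (SD over probe sets). NFKBIE (IκBε) had 5.48 in AGS.W and 5.65 in AGS.veh on its single probe set, a difference of -0.17 that lay within the spread.

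TNFAIP3, which encodes the ubiquitin-editing enzyme A20, was slightly higher in AGS.W on both of its probe sets. The brighter had 9.14 in AGS.W, compared with 8.99 in AGS.veh, and the dimmer had 7.28 in AGS.W and 6.93 in AGS.veh. The differences were 0.15 and 0.36, of which the second was the highest of any member probe set, and both lay within the spread at their signals. Of all genes, 30.4% had a difference at least as high as the first. The members with κB matches in the sequences above thus included NFKB1, 1.98-fold lower, and NFKBIA and TNFAIP3, which were within 0.36 of equality on every probe set.

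The other genes of the pathway were taken from lists by role, which share some genes. These lists were chosen with earlier results of these data known, so their shares cannot show an excess over all genes. Of 7 measured IκB-like and accessory genes, all passed the filter and none was 2-fold apart, against 3.78% of all genes, with 2 higher, 5 lower and a median difference of -0.22. The median over all genes was -0.01, and averaging all probe sets of each gene brought that of the list to -0.10. COMMD1, which promotes the removal of RELA from chromatin, had 6.14 in AGS.W and 7.02 in AGS.veh on its only probe set, 1.84-fold lower in AGS.W. On the other side NFKBIL1 had a difference of 0.18. The atypical IκB genes NFKBIZ and NFKBID had -0.23 and 0.10 on their brightest probe sets, and BCL3 was not analysed here.

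The list of kinases, which also holds the non-kinase partners IKBKG, TAB1, TAB2 and TAB3, had no gene 2-fold apart. Of 11 listed genes that passed the filter, 10 had a lower value in AGS.W and 1, TBK1 with 0.19, a higher one. Only 2 of these differences, those of MAP3K8 and IKBKE, exceeded the spread at their signal, both on the lower side. TAB1 narrowly failed the filter, with 4.020 in AGS.W, where the array median was 4.022, and 3.38 in AGS.veh. Its difference of 0.64 was on the higher side, and without the signal filter the median over 12 genes was -0.18. With the mean of the probe sets that passed, 8 of the 11 genes were lower and 3 higher. On the brightest probe sets their median was -0.21, against -0.01 over all genes, of which 6466 were lower and 5850 higher. The catalytic subunits of the IκB kinase complex, CHUK and IKBKB, had -0.06 and -0.28, and its scaffold IKBKG had -0.25. NIK (MAP3K14), the kinase of the non-canonical branch, had 6.11 in AGS.W and 6.48 in AGS.veh. MAP3K8, a kinase bound and held by p105, the product of NFKB1, had 5.45 in AGS.W and 6.09 in AGS.veh on one probe set and 3.71 in AGS.W and 4.23 in AGS.veh on the other. Averaging all probe sets of each gene brought the median of the list to -0.09.

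**Figure D3:**
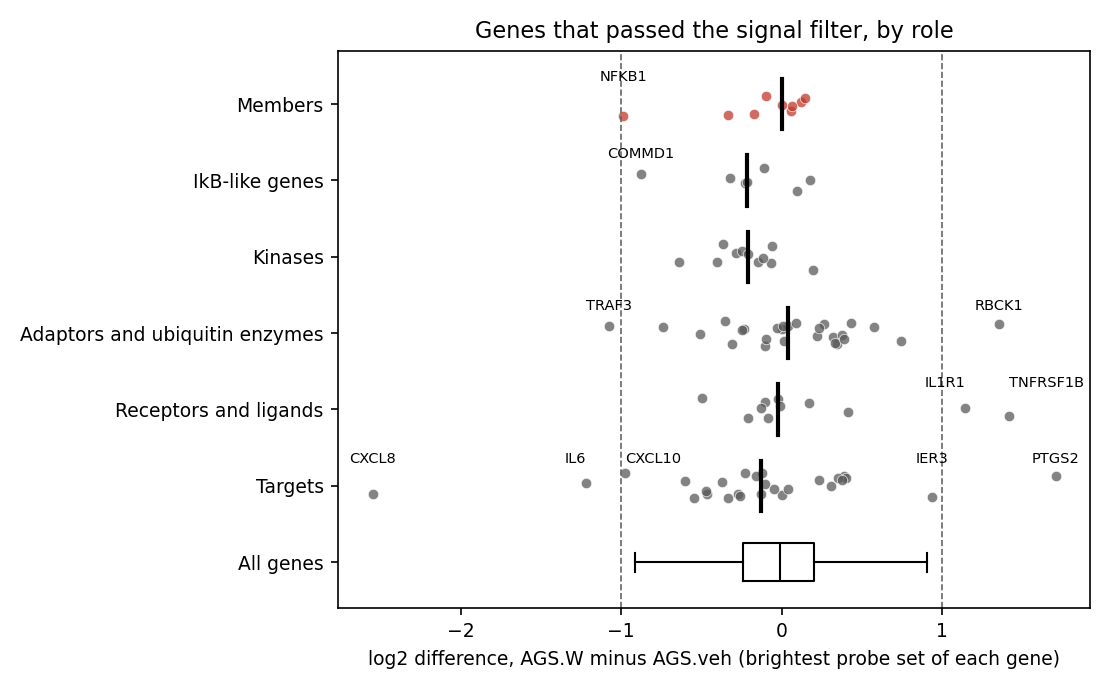
Log2 difference, AGS.W minus AGS.veh (horizontal axis), of each gene that passed the filter, grouped by role, with medians as vertical bars and genes beyond 0.85 named. The box gives the quartiles of all 12811 genes and its whiskers the middle 95%, and only NFKB1 of the members lies outside the whiskers.

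Adaptors and ubiquitin enzymes held 1 gene past 2-fold on each side among 27 that passed, against 1.83% of all genes higher and 1.94% lower, and their median was 0.04. RBCK1 (HOIL-1), a subunit of the complex that builds linear ubiquitin chains, had 10.5 in AGS.W and 9.16 in AGS.veh, 2.57-fold higher. Its other probe sets were also higher, by 0.89 and 0.37. The other subunits of that complex did not share this, with 0.00 for RNF31 and -0.03 for SHARPIN on their brightest probe sets. TRAF3, which restrains NIK, had 6.20 in AGS.W and 7.28 in AGS.veh, 2.11-fold lower, and -0.63 on a second probe set.

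CYLD, a deubiquitinase that opposes the pathway alongside A20, did not reach 2-fold on its brightest probe set, at 6.71 in AGS.W and 6.13 in AGS.veh. It is named here outside the rule for named genes, a choice made after its values were seen. Of its 7 probe sets, which are not replicates, 6 were higher in AGS.W, by 0.40 to 1.05, and 1 was equal. Their mean difference was 0.65. Among the listed targets XIAP also had 7 probe sets and CFLAR had 14, with mean differences of 0.29 and -0.22. OTULIN, which removes linear chains, showed how far probe sets of 1 gene can part, with 0.75 on the brightest and -0.76 and -0.67 on the others. BIRC2, the close relative of BIRC3, had 9.36 in AGS.W and 9.09 in AGS.veh.

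Among receptors and ligands 11 of 24 measured genes passed, of which 2 were at least 2-fold higher in AGS.W and none 2-fold lower, against 1.83% of all genes higher and 1.94% lower, with a median of -0.02. With the median required on both arrays, 1 was 2-fold higher. TNFRSF1B, the second TNF receptor, had 5.57 in AGS.W and 4.15 in AGS.veh. IL1R1, the signalling receptor for interleukin 1, had 4.03 in AGS.W, compared with 2.89 in AGS.veh, and its AGS.veh signal lay so far below the median that the difference has no firm size. With that signal set to the median, the difference was 0.01. TNFRSF1A, the first TNF receptor, was nearly equal, at 7.55 in AGS.W and 7.58 in AGS.veh, whereas the TNF gene, with 3.81 in AGS.W, compared with 3.25 in AGS.veh, did not reach the median on either array.

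Known target genes differed both ways. Past 2-fold lay 3 of 27 that passed, 1 higher and 2 lower, which is 11.1% of them against 3.78% of all genes. As for the other lists, this share cannot show an excess. Of the 27, 9 were higher, 17 lower and 1 equal, with a median of -0.13. Over all 12811 genes 5850 were higher and 6466 lower, with a median of -0.01. CXCL10, TNFRSF9 and MMP9, all lower, passed only through their AGS.veh signal. With the median required on both arrays, 24 targets passed, 1 of them 2-fold higher and 2 lower, with a median of -0.11. Without the filter, 1 of 37 targets was 2-fold higher and 3 were lower, against 241 and 267 of 19775 genes. The gene added was CCL2, with 2.47 in AGS.W, compared with 4.01 in AGS.veh, below the median on both arrays. CXCL8, the neutrophil chemokine whose κB match is printed above, had 4.29 in AGS.W and 6.84 in AGS.veh, 5.86-fold lower. Its other probe set, which did not pass the filter, had 3.10 in AGS.W and 3.89 in AGS.veh. IL6, also with a κB match above, was 2.33-fold lower, at 5.64 in AGS.W and 6.86 in AGS.veh on its only probe set. The motif search also took in TRAF3, which had matches, and CCL2, PTGS2 and RBCK1, for which none was recorded. For these, a window without a match was not told apart from a missing window, and bases further upstream were not searched. Whether a match goes with the direction of a difference was not tested.

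Targets past 1.5-fold numbered 6 of 27, 2 higher and 4 lower in AGS.W, against 14.0% of all genes, and besides CXCL8 and IL6 they are the following 4. PTGS2 (COX-2), the inducible prostaglandin synthase, had 9.50 in AGS.W and 7.79 in AGS.veh, 3.27-fold higher, and its second probe set had 7.42 in AGS.W and 5.60 in AGS.veh. IER3, an early response gene, had 11.8 in AGS.W and 10.9 in AGS.veh, just short of 2-fold. On the lower side, SDC4, a cell surface proteoglycan, had 8.45 in AGS.W and 9.05 in AGS.veh, 1.52-fold lower. The chemokine CXCL10 read 3.48 in AGS.W, compared with 4.46 in AGS.veh. Its AGS.W signal lay below the median, so the difference has no firm size. With that signal set to the median, the difference was -0.44. IER3, SDC4 and CXCL10 were chosen by this limit after the values were seen.

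**Figure D4:**
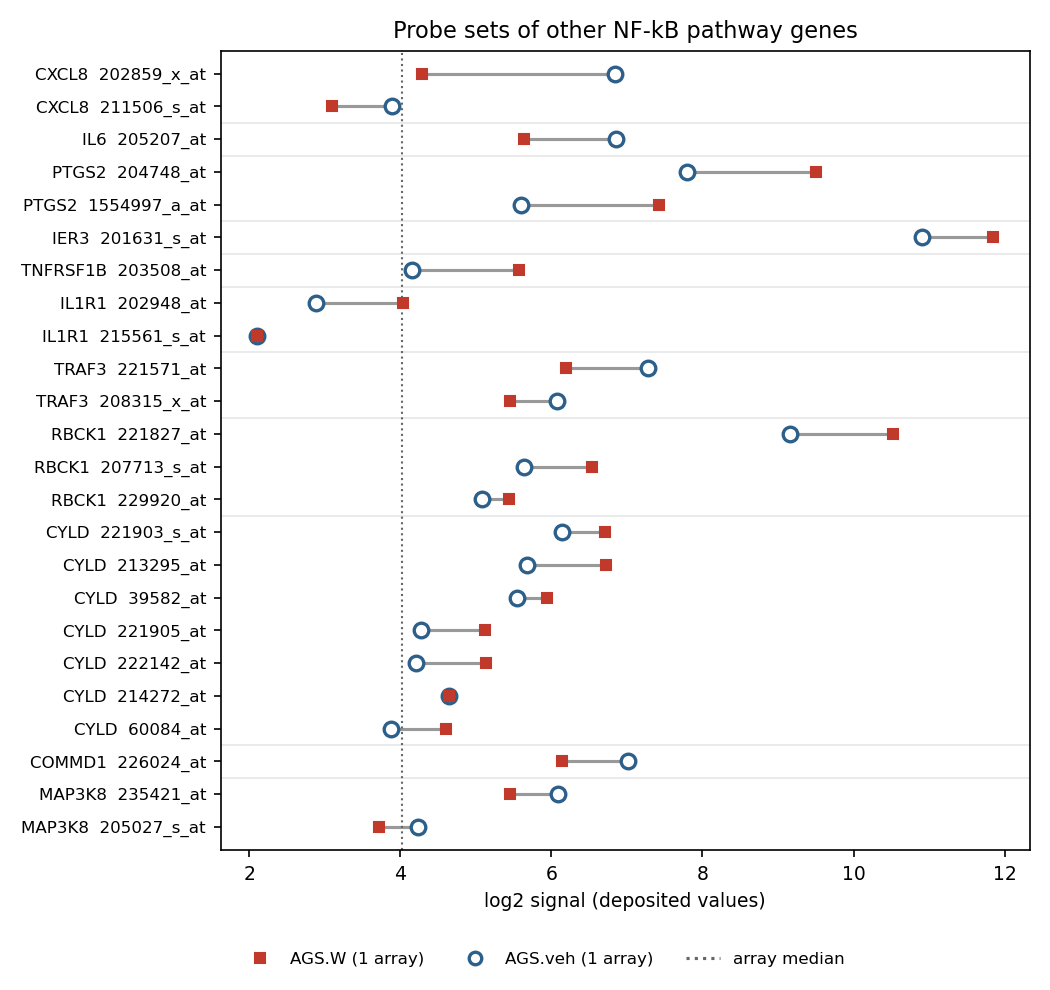
Log2 signal (horizontal axis) of every probe set of 11 pathway genes that are no members, in AGS.W (squares) and AGS.veh (circles), 1 array each, with the array median as a dotted line. CXCL8, IL6 and TRAF3 lie lower in AGS.W on each of their probe sets, and PTGS2 and RBCK1 lie higher on each of theirs.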

How the data were processed

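AGS.W and AGS.veh had 1 array each. Log2 signals of probe sets were used as deposited, after the authors had normalized them between arrays. The submitters' processing notes name RMA and MAS5 without their roles, with versions and background correction not given in the sources used here. After removal of 62 control probe sets, annotation of 2016 gave 41091 probe sets 1 gene, 1801 several and 11721 none used here. Genes were named through RefSeq identifiers (GRCh38.p14). The fold threshold of 2 followed the methods, whose FDR of 5% needs replicates. The members and lists were chosen with earlier results of these data known. In each of 5 lists the rule named up to 3 genes per direction past 2-fold, or else the largest in each direction. Other genes named from these lists, among them OTULIN, CYLD and IKBKE, lay outside this rule, and their choice was not fixed beforehand. Listed genes without a probe set of their own were not analysed here. Alternatives were scaling (median, quantile, lowess of span 0.3), gene summaries, signal filters and fold thresholds. Simulated data with large shifts in all probe sets of a gene tested only that the code recovers them, not its error on real arrays. The number of arrays limits the precision. Values were computed with Python 3.11.15 and its packages pandas 2.3.3, numpy 2.4.6, scipy 1.17.1, statsmodels 0.14.6 and matplotlib 3.10.9.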

Additional observations from a re-analysis of the deposited data

How the results depend on the processing

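No paired analysis was possible because only 1 array of each line exists here, which also leaves no array to drop. A value was taken to move where it changed by more than the spread of differences at its signal. All 52 alternative differences of member genes and all 80 of member probe sets stayed within it, and none of the 9 alternative medians of the members moved, though scaling hardly shifted the arrays and genes with 1 probe set cannot move with the gene summary. For every member gene except NFKB1 the spread exceeded the difference itself, so even a change of sign could have stayed within it. That no value moved therefore says little about these genes. NFKB1 ranged from -0.99 to -0.97. Counts of the other lists are given here where they changed by more than 1.5-fold, or to or from 0. The count of members at least 2-fold lower was 1 at the 1.5-fold threshold and 0 under every other alternative, and that of higher members was 0 throughout. With the mean of all probe sets, or of those that passed, 0 adaptors were 2-fold higher and 0 lower, and RBCK1 had 0.87. With the mean of all probe sets 1 receptor was higher, CXCL8 had -1.67 and IL1R1 0.57. Without _x_at and _s_at probe sets 2 adaptors were higher and 1 target was lower. With the median reached on both arrays 1 receptor was higher, and with the upper quartile 0. At 1.5-fold, 1 IκB-like gene and 1 kinase were lower, 2 adaptors higher and 2 lower, and 2 targets higher and 4 lower. At 3-fold, 0 adaptors were higher and 0 lower, 0 receptors were higher and 1 target was lower. The bound that set IL1R1 to 0.01 and CXCL10 to -0.44 was chosen after the values were seen. Over all genes 235 were 2-fold higher and 249 lower, with means of all probe sets 145 and 141, at 1.5-fold 851 and 944, and at 3-fold 56 and 57.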
